A study of Macaca mulatta with 136 samples.

Results

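The 10 genes followed here are named for macular disease in humans. Their RNA was measured through the central and outer retina of the rhesus macaque. The genes, TIMP3, EFEMP1, BEST1, PRPH2, ELOVL4, PROM1, HTRA1, IMPG1, IMPG2 and CDHR1, were found by their gene symbol, and 9 of these 10 had values among the 19422 gene identifiers of the series, while PRPH2 was not analysed here. IMPG1 stood under 2 identifiers, so the 9 genes filled 10 entries. The entry with the higher total, ENSMMUG00000048485, is described as IMPG1, and the other, ENSMMUG00000005035, is given where its values bear on a result. All 10 entries passed the filter on low counts in all 13 comparisons.

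The tissue was taken after death from both eyes of 2 adult rhesus monkeys, called RM03 and RM04 in the sample labels, for which the labels name no treatment or genetic change. In each eye 2 mm punches sampled 4 places, namely fovea/macula, perimacula, nasal and periphery, and each was split by microdissection into neural retina and RPE/choroid, the retinal pigment epithelium (RPE) together with the vascular choroid beneath it. This gave 32 bulk RNA libraries in 8 groups of 4 eyes, where eyes 1 and 2 are the right and left eye of RM03 and eyes 3 and 4 those of RM04. Fellow eyes share an animal, so the spread over 4 eyes covers only 2 animals.

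The members fall into 3 kinds by what their proteins do. TIMP3, an inhibitor of matrix metalloproteinases, EFEMP1 (fibulin-3), an extracellular glycoprotein, and HTRA1, a secreted serine protease, act in the extracellular matrix, and the first 2 accumulate in Bruch's membrane or beneath the RPE in Sorsby fundus dystrophy and in dominant drusen. BEST1 encodes bestrophin-1, a chloride channel of the basolateral RPE membrane that is mutated in Best vitelliform macular dystrophy. PROM1 and CDHR1 encode membrane proteins at the base of the photoreceptor outer segment, ELOVL4 elongates very long chain fatty acids that photoreceptors build into their membranes, and IMPG1 and IMPG2 encode proteoglycans of the matrix around photoreceptors. Variants in these photoreceptor genes cause cone-rod, Stargardt-like or vitelliform disease, and HTRA1 lies at a locus associated with age-related macular degeneration.

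Each library held between 42448891 and 78574034 estimated counts. Levels are given in CPM, counts scaled to a common library size, with TMM factors that make this size robust to a few very abundant genes. They are compared within a gene only, since gene lengths were not used. The fovea, perimacula and nasal libraries were sequenced on 2 shared flow cells and the periphery libraries on 1 other, so a difference between periphery and any other location cannot be told apart from a flow cell difference. The tissues carried their own markers: the summed level of 9 rod markers was 4013 to 28040.3 CPM in retina and 50.1 to 924 CPM in RPE/choroid, and that of 8 RPE markers was 10972 to 28047 CPM in RPE/choroid and 381 to 2806 CPM in retina. In 3 RPE/choroid libraries, the fovea of eye 3 and the periphery of eyes 1 and 4, the rod marker sum was 539, 924 and 691 CPM, above the other 13 RPE/choroid libraries, and the periphery of eye 2 held 482 CPM of RPE65, the visual cycle isomerase of RPE cells, the lowest among the peripheral RPE/choroid libraries. Values without these libraries are given where they change a result. In bulk tissue, fewer cells of a type and less RNA per cell cannot be told apart.

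In neural retina 8 of the 9 genes were lower at the fovea than at the periphery, and HTRA1 was the exception, in a comparison in which 67.0% of all genes were called. In RPE/choroid the pattern was different: TIMP3 and EFEMP1 were higher at the fovea than at the periphery, and the others showed no difference that passed the test, where 44.1% of all genes did. The TIMP3 call held in 15 of 15 alternatives and that of EFEMP1 was lost in 8 of 15. TIMP3, EFEMP1, BEST1 and HTRA1 had more RNA in RPE/choroid, and PROM1, CDHR1, ELOVL4, IMPG1 and IMPG2 had more in retina, at all 4 locations.

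**Figure D1:**
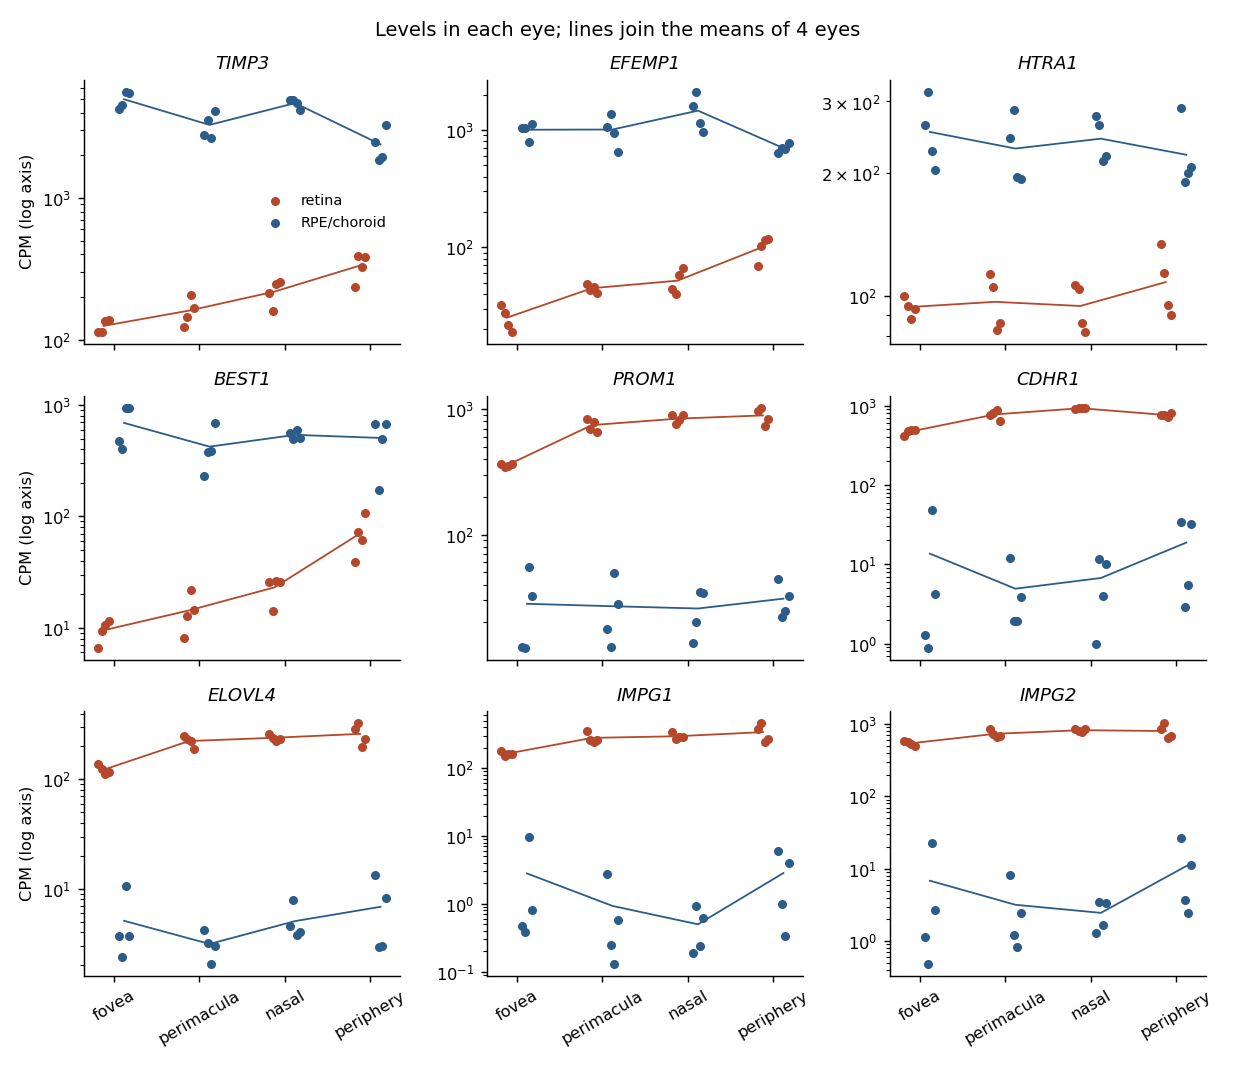
Level of each gene in CPM (vertical log axis, with its own range per panel) at the 4 locations in neural retina (red) and RPE/choroid (blue). Points are the 4 eyes in the order 1 to 4 and lines join the means. Mean retinal levels climb from the fovea to the periphery for TIMP3, EFEMP1 and BEST1. They step up between the fovea and the perimacula for the 5 photoreceptor genes, and stay near 100 CPM for HTRA1.

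The first question was which genes differed between the fovea and the other locations within the retina. Against the periphery, 8 of 9 genes were called at an adjusted p under 0.05 (edgeR quasi-likelihood test, Benjamini-Hochberg adjustment over all genes tested), all of them lower at the fovea, where 67.0% of all 15380 genes tested were called. The median log2 fold change of fovea over periphery was -1.02 for the 9 genes and -0.056 for all genes tested. Against the perimacula, 6 of 9 were called, all lower at the fovea, beside 35.2% of all genes, with a median of -0.67 for the 9 genes and 0.0080 for all. Against the nasal location, 8 of 9 were called, again all lower at the fovea, beside 52.2% of all genes, with a median of -0.94 for the 9 genes and -0.037 for all. The perimacula and nasal comparisons were made within shared flow cells.

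**Figure D2:**
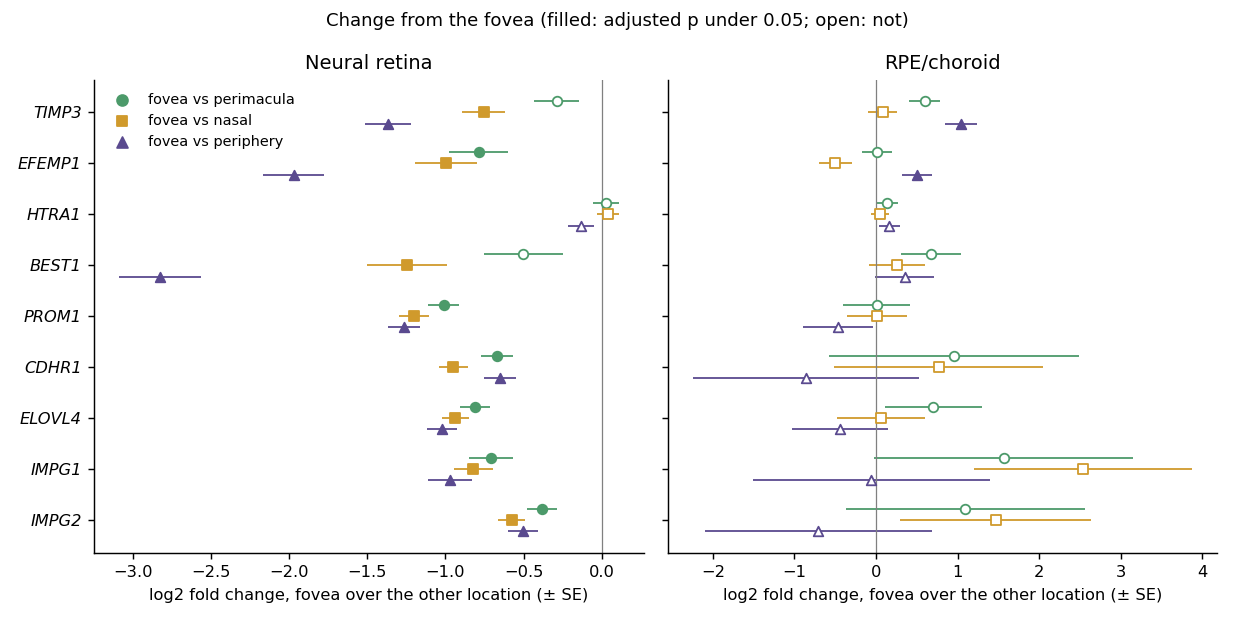
Log2 fold change of the fovea over the perimacula (circles), the nasal location (squares) and the periphery (triangles) for each gene in neural retina (left) and RPE/choroid (right), with standard errors as bars. Filled symbols passed an adjusted p of 0.05. All retinal values except those of HTRA1 lie below 0, from -0.29 to -2.82, and in RPE/choroid the only filled symbols are those of TIMP3 and EFEMP1 against the periphery.

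Among the photoreceptor genes, PROM1, which shapes the membrane evaginations that become outer segment discs, had the lowest fold change of the fovea in all 3 comparisons, apart from the other IMPG1 entry against the periphery. Its retinal level in eyes 1 to 4 was 363, 343, 352 and 364 CPM at the fovea, 838, 697, 789.8 and 663 at the perimacula, 891, 755, 818 and 897 in the nasal punches and 965, 1029.9, 739 and 833 at the periphery. Every foveal value lay below every value elsewhere, and the other 3 locations overlapped each other. The log2 fold change of the fovea was -1.01 (SE 0.0999, adjusted p = 4.86e-05) against the perimacula, -1.20 (SE 0.0939, adjusted p = 2.44e-07) against the nasal location and -1.26 (SE 0.101, adjusted p = 5.95e-07) against the periphery. Most of the difference between fovea and periphery was already present at the perimacula.

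CDHR1, a cadherin at the junction between the inner and outer segments, was lowest at the fovea as well but was not highest at the periphery. Its retinal levels were 413, 476, 493 and 487 CPM at the fovea, 754, 815, 889 and 633 at the perimacula, 906, 943, 924 and 931 in the nasal punches and 756, 758, 712 and 812 at the periphery. The nasal values lay above those of all other locations, without overlap. The fovea was lower by -0.95 on the log2 scale than the nasal location (SE 0.0941, adjusted p = 1.52e-06) and by -0.65 than the periphery (SE 0.102, adjusted p = 0.000127). In the RefSeq annotation of a later macaque assembly CDHR1 overlaps RGR, a gene of RPE and Mueller cells. RGR held 8.78 to 289.8 CPM in the retina libraries, and reads shared between the pair could not be told apart here.

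ELOVL4 had 138, 124, 112 and 116 CPM in the foveal retina, 249.95, 235, 223 and 188 at the perimacula, 262, 240.5, 225 and 233 in the nasal punches and 288, 325, 196 and 234 at the periphery. All foveal values again lay below all others. The fovea had a log2 fold change of -0.81 against the perimacula (SE 0.0956, adjusted p = 0.000128) and -1.02 against the periphery (SE 0.0959, adjusted p = 2.05e-06). ELOVL4 was higher in RM03 than in RM04 at 4 of 4 retinal locations, with both eyes of RM03 above both eyes of RM04.

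The matrix proteoglycans were lowest at the fovea too. IMPG1 stood at 178, 153, 159 and 160.5 CPM in the foveal retina, 351, 263, 239 and 264 at the perimacula, 339, 271, 284 and 288 in the nasal punches and 384, 457, 245 and 273 at the periphery. Its foveal values lay below all others, with a log2 fold change of -0.71 against the perimacula (SE 0.141, adjusted p = 0.00244) and -0.97 against the periphery (SE 0.142, adjusted p = 7.26e-05). The other IMPG1 entry gave -0.73 and -1.36 for the same comparisons. Its peripheral values were 399, 449, 234 and 282 CPM against 134, 124, 119 and 122 at the fovea, so the entries differed more in how far the periphery stood from the fovea than in the direction.

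IMPG2 gave 579.6, 562, 524 and 495 CPM in the foveal retina, 853, 734, 654 and 693 at the perimacula, 866, 809, 768 and 854 in the nasal punches and 849, 1023, 643 and 693 at the periphery. The foveal group did not overlap the others, but its fold changes were the smallest among the photoreceptor genes. The log2 fold change was -0.38 against the perimacula (SE 0.0956, adjusted p = 0.00893), -0.58 against the nasal location (SE 0.0850, adjusted p = 4.91e-05) and -0.50 against the periphery (SE 0.0958, adjusted p = 0.000588). The perimacular call for IMPG2 was lost without eye 1 (log2 fold change -0.36, adjusted p = 0.0683) and without the monkey covariate (-0.39, adjusted p = 0.0723).

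The fovea holds cones in place of most rods. In retina the rod markers differed in the same direction as these genes, and the called cone markers in the opposite direction. All 9 rod markers were called lower at the foveal than at the peripheral retina, with log2 fold changes from -2.99 to -1.68 and a median of -2.20. Of 8 cone markers, 7 were called higher, with a median of 1.08. Over all genes, 67.0% were called in this comparison. The 5 photoreceptor members lay between, from -1.26 to -0.50. Their foveal change was smaller than that of every rod marker and opposite in sign to that of the called cone markers. The part that cell composition has in these differences was not tested.

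For TIMP3, EFEMP1 and BEST1 the mean retinal level rose at each step from fovea over perimacula and nasal location to periphery. The means of ELOVL4, PROM1 and IMPG1 had the same order. The other IMPG1 entry went from a mean of 221 CPM in the nasal punches to 341 CPM at the periphery. The step to the periphery lies across flow cells, and steps between locations outside the fovea were not tested. TIMP3 rose from 114, 114, 135 and 138 CPM at the fovea over 123, 144, 208 and 168 at the perimacula and 212, 160.5, 248 and 254 at the nasal location to 234, 392, 326 and 384 at the periphery. Neighbouring locations overlapped in this order, but the fovea did not overlap the nasal location or the periphery. The log2 fold change of the fovea was -0.29 against the perimacula (SE 0.145, adjusted p = 0.145), which did not pass, -0.76 against the nasal location (SE 0.139, adjusted p = 0.000337) and -1.37 against the periphery (SE 0.148, adjusted p = 6.02e-06). All 4 eyes were lower at the fovea than at the perimacula, and with only these 2 groups in the fit TIMP3 passed (-0.33, adjusted p = 0.0246).

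EFEMP1 was 32.1, 27.4, 21.6 and 18.98 CPM in the foveal retina, 49.0, 43.3, 46.0 and 40.6 at the perimacula, 44.3, 39.8, 57.5 and 66.0 in the nasal punches and 68.6, 103, 115 and 116 at the periphery. The foveal values were below and the peripheral values above all others, while perimacula and nasal location overlapped. The fovea differed from the perimacula by -0.79 on the log2 scale (SE 0.189, adjusted p = 0.00704), from the nasal location by -0.996 (SE 0.199, adjusted p = 0.000696) and from the periphery by -1.97 (SE 0.194, adjusted p = 2.997e-06). Without eye 3 the perimacular difference of EFEMP1 no longer passed (-0.72, adjusted p = 0.0636).

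BEST1 had the strongest retinal fold change of the 9 genes against the periphery, across flow cells, but not against the perimacula, where PROM1 did (-1.01). It was listed at 6.62, 9.35, 10.6 and 11.4 CPM at the fovea, 8.07, 12.8, 22.01 and 14.4 at the perimacula, 25.8, 14.1, 26.3 and 25.9 in the nasal punches and 38.6, 72.9, 61.2 and 108 at the periphery, so that the peripheral values lay above all others. The mean was 7.40 times higher at the periphery than at the fovea. The fovea had a log2 fold change of -0.50 against the perimacula (SE 0.252, adjusted p = 0.144), which did not pass, -1.25 against the nasal location (SE 0.257, adjusted p = 0.000870) and -2.82 against the periphery (SE 0.263, adjusted p = 1.91e-06).

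Against the periphery, most RPE markers in the retina libraries differed in the same direction as these 3 genes. Their summed retinal level was 381 to 523 CPM at the fovea, 590.3 to 954 at the perimacula, 1167 to 1375 in the nasal punches and 2028 to 2806 at the periphery, and none of the 8 was at 0. Of these 8 markers, 7 were called lower at the foveal than at the peripheral retina, where 67.0% of all genes were called. Over the 8 markers the median log2 fold change was -1.97. The values ranged from -3.23 for TTR (transthyretin) to -0.69 for LRAT, which did not pass (adjusted p = 0.0595). The fold changes of TIMP3, EFEMP1 and BEST1 lay inside this range. RLBP1 was at -3.09 and TYRP1, a melanosome enzyme, at -2.71, while RPE65 was at -1.13 and SERPINF1 at -1.30. Against the perimacula 2 of the 8 were called, both lower at the fovea, beside 35.2% of all genes. The median there was -0.28, and PMEL and TTR had values of 0.45 and 0.075. Against the nasal location 7 of 8 were called lower, beside 52.2% of all genes. The median there was -0.92, and PMEL was at 0.22. RLBP1 is also made by Mueller glia, whose 7 markers were all called lower at the foveal retina against the periphery, with a median of -1.54. The part of RPE cells left on the retina, or of glia, in the levels of TIMP3, EFEMP1 and BEST1 was not tested.

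HTRA1 was the flattest member. Its retinal level was 100.2, 94.9, 88.1 and 93.3 CPM at the fovea, 114, 105, 82.8 and 85.9 at the perimacula, 107, 104, 85.9 and 81.8 in the nasal punches and 134, 114, 95.3 and 90.0 at the periphery. All 4 locations overlapped. The log2 fold change of the fovea was 0.027 against the perimacula (SE 0.0814), 0.040 against the nasal location (SE 0.0691) and -0.13 against the periphery (SE 0.0814), with adjusted p of 0.824, 0.657 and 0.167. The peripheral difference passed when library totals were used without TMM scaling (-0.19, adjusted p = 0.0299). The animals differed as well: both eyes of RM03 lay above both eyes of RM04 at 4 of 4 retinal locations and at 3 of 4 in RPE/choroid, with means over locations of 109 and 87.9 CPM in retina and of 266 and 208 CPM in RPE/choroid.

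In RPE/choroid, 2 of 9 genes were called between the fovea and the periphery, TIMP3 and EFEMP1, both higher at the fovea, beside 44.1% of all 15674 genes tested. The median log2 fold change was -0.057 for the 9 genes and -0.059 for all. Between the fovea and the perimacula 0 of 9 were called by edgeR and 0 by DESeq2, with 1 at an unadjusted p under 0.05 in each, beside 0.0447% of all genes, or 7 genes. Between the fovea and the nasal location 0 of 9 were called by either tool, with 1 at an unadjusted p under 0.05 in edgeR and 2 in DESeq2, beside 0.361% of all genes, or 57 genes. The median for the 9 genes was 0.67 and 0.080 in these comparisons, and -0.010 and 0.0016 for all genes.

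TIMP3 in RPE/choroid measured 4257, 4519, 5618 and 5487 CPM at the fovea, 2779.6, 3573, 2634 and 4125 at the perimacula, 4934, 4889, 4710.1 and 4153 in the nasal punches and 2488, 1851, 1944 and 3275 at the periphery. The fovea lay above both the perimacula and the periphery without overlap and overlapped the nasal location. Against the periphery the log2 fold change was 1.04 (SE 0.193, adjusted p = 0.00139), a mean 2.08 times higher at the fovea, and the call held without the 3 libraries high in rod markers and without the library lowest in RPE65. Against the perimacula it was 0.59 (SE 0.192), with an unadjusted p of 0.0102 and an adjusted p of 0.311, and all 4 eyes were higher at the fovea. SYN3, a neuronal gene that overlaps TIMP3 in the same RefSeq annotation, had 0.792 to 4.04 CPM in the foveal and 0.844 to 3.18 CPM in the peripheral RPE/choroid, and in retina SYN3 fell from a mean of 40.6 CPM at the fovea to 1.88 at the periphery, opposite to TIMP3.

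EFEMP1 in RPE/choroid measured 1047, 1048, 791 and 1134 CPM at the fovea, 1060.0, 1382, 949 and 647 at the perimacula, 1602, 2119.6, 1158 and 969 in the nasal punches and 642, 704, 684 and 774 at the periphery. The fovea lay above the periphery without overlap, and the nasal mean was the highest. The log2 fold change against the periphery was 0.50 (SE 0.182, adjusted p = 0.0444). This EFEMP1 call was lost in 8 of 15 alternatives, with an adjusted p of 0.0677 with the eye as a block, 0.136 with library totals alone, 0.0617 without covariate, 0.161 without eye 1, 0.0846 without eye 2, 0.0880 without eye 3, 0.0953 without the library lowest in RPE65 and 0.0852 without the 3 libraries high in rod markers, while the direction stayed. Against the nasal location EFEMP1 was lower at the fovea by -0.50 (SE 0.198), with an unadjusted p of 0.0250 and an adjusted p of 0.257, and lower in 3 of 4 eyes.

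BEST1 in RPE/choroid varied widely within a location, with 478, 405, 931 and 949 CPM at the fovea, 232, 382, 389.9 and 688 at the perimacula, 559, 491, 599.5 and 509 in the nasal punches and 674, 173, 499 and 679.5 at the periphery. All locations overlapped. The lowest value, 173 CPM, came from the peripheral library that was also lowest in RPE65. The fovea had a log2 fold change of 0.35 against the periphery (SE 0.364, adjusted p = 0.460) and 0.67 against the perimacula (SE 0.364, adjusted p = 0.543). Without the 3 libraries high in rod markers BEST1 was called higher at the fovea than at the periphery (1.11, adjusted p = 0.0269), with few libraries left. At the periphery only eyes 2 and 3 remained, at 173 and 499 CPM, and eye 2 is the library lowest in RPE65. The peripheral values left out, 674 and 679.5 CPM, were the highest there. HTRA1 in RPE/choroid was 263, 317, 227 and 203 CPM at the fovea and 289.6, 191, 201 and 207 at the periphery, with a log2 fold change of 0.16 (SE 0.128, adjusted p = 0.326) and overlapping values at every location.

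Markers of other cells in RPE/choroid also differed between fovea and periphery, where 44.1% of all genes were called. All 5 smooth muscle markers and all 5 endothelial markers were called higher at the fovea, with medians of 2.64 and 0.69 on the log2 scale, and 4 of 6 fibroblast markers were called lower, with a median of -0.76. The summed smooth muscle markers spanned 5060 to 8263 CPM at the fovea and 426 to 1773 CPM at the periphery. Of the 8 RPE markers, 1 was called higher and 3 lower at the fovea, with a median of -0.14. TIMP3 and EFEMP1 are made by several of these cells, and their part in the fold changes was not tested.

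The 5 photoreceptor genes were present in RPE/choroid at low levels. For all but PROM1, the libraries high in rod markers held higher values than every other library. The highest PROM1 value, 54.7 CPM, also came from one of them, the fovea of eye 3, but a perimacular library was next at 49.1 CPM. CDHR1 was 1.31, 0.892, 48.1 and 4.24 CPM at the fovea and 34.5, 2.90, 5.47 and 32.3 CPM at the periphery. IMPG2 was 1.15, 0.490, 23.0015 and 2.72 CPM at the fovea and 26.4, 3.67, 2.43 and 11.2 CPM at the periphery. In each case eye 3 at the fovea and eyes 1 and 4 at the periphery stood above the other eyes, as the rod markers did. IMPG1 had the same order, with 0.465, 0.379, 9.54 and 0.815 CPM at the fovea and 5.97, 0.982, 0.335 and 4.06 at the periphery.

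No photoreceptor gene was called between locations in RPE/choroid, and the standard errors of the fovea and periphery comparison ran from 0.424 for PROM1 to 1.45 for IMPG1. Without eye 3, whose foveal library is high in rod markers, CDHR1 and IMPG2 were called lower at the fovea than at the periphery, with log2 fold changes of -3.59 (adjusted p = 0.0370) and -3.32 (adjusted p = 0.0452). That fit kept the peripheral libraries of eyes 1 and 4, which are also high in rod markers. ELOVL4 was 3.72, 2.39, 10.6 and 3.70 CPM at the fovea and 13.2, 2.93, 2.997 and 8.19 at the periphery. PROM1 differed between the animals: its 4 foveal values were 12.6, 12.6, 54.7 and 32.4 CPM, and both eyes of RM04 lay above both eyes of RM03 at 3 of 4 locations, with means of 36.3 and 19.5 CPM.

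**Figure D3:**
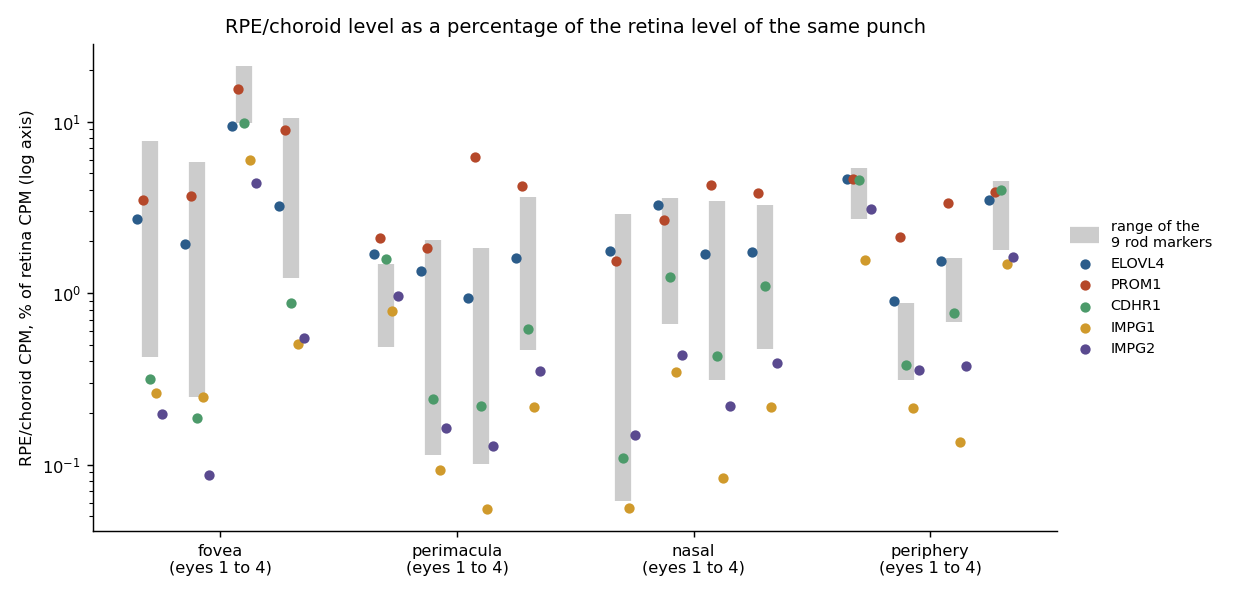
RPE/choroid level of the 5 photoreceptor genes as a percentage of the retina level in the same punch (vertical log axis), for eyes 1 to 4 at each location. Grey bars span the 9 rod markers in that punch. IMPG1 and IMPG2 lie at or below the lower end of the bars in most punches, and PROM1 lies above the bar in 7 of 16.

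To set these low levels beside those of known rod genes, the RPE/choroid level was divided by the retinal level of the same punch. Over the 16 punches this share had a median of 0.233% for IMPG1, 0.368% for IMPG2, 0.694% for CDHR1, 1.74% for ELOVL4 and 3.74% for PROM1. IMPG1 was below every rod marker in 14 of 16 punches and IMPG2 in 10 of 16. PROM1 was above every rod marker in 7 of 16 punches, ELOVL4 in 2, CDHR1 in 1 and IMPG1 and IMPG2 in 0. The rod markers themselves had medians from 0.474% for PDE6A to 3.51% for SLC24A1, so the median of PROM1 was above that of each of the 9 rod markers.

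The second question was how far the tissues differed at each location. At the fovea 9 of 9 genes were called between retina and RPE/choroid, beside 75.5% of all 16382 genes tested, and the same count was found at the perimacula beside 76.7%, at the nasal location beside 76.2% and at the periphery beside 75.7%. At each location 5 were higher in retina and 4 in RPE/choroid, so the median of the 9 genes, 3.78 at the fovea and 4.86 at the periphery, lay among the retinal genes, while that of all genes was -0.0017 and 0.017. BEST1, EFEMP1 and TIMP3 differed most among the genes of RPE/choroid, by -6.12 (SE 0.387), -5.34 (SE 0.268) and -5.31 (SE 0.206) on the log2 scale at the fovea and by -2.86, -2.79 and -2.84 at the periphery. HTRA1 differed by -1.41 (SE 0.0961) at the fovea and -1.05 (SE 0.0952) at the periphery.

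**Figure D4:**
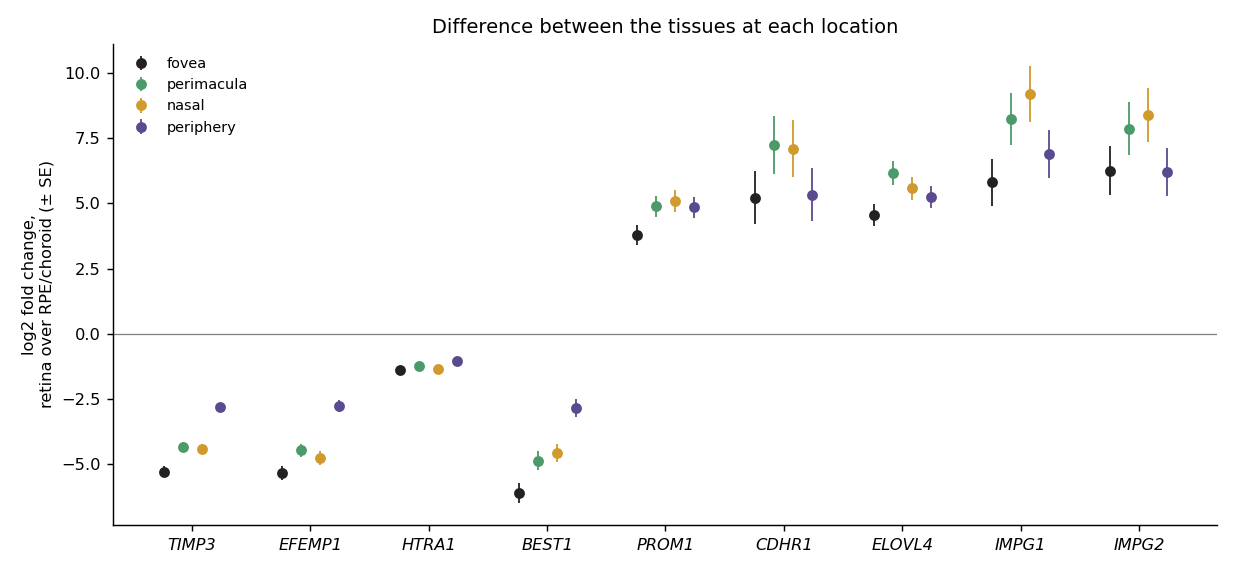
Log2 fold change of retina over RPE/choroid for each gene at the 4 locations, with standard errors as bars. TIMP3, EFEMP1 and BEST1 lie near -5 to -6 at the fovea and near -3 at the periphery, HTRA1 stays between -1.41 and -1.05, and the 5 photoreceptor genes lie above 3.

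Of the photoreceptor genes, IMPG2 differed by 6.25 (SE 0.949) at the foveal and 6.21 (SE 0.936) at the peripheral punches, and PROM1 by 3.78 (SE 0.387) and 4.86 (SE 0.404). Whether the change from the fovea differed between the tissues was tested with the interaction between both factors. Against the periphery, 4 of 9 genes were called, beside 43.5% of all genes: BEST1 by -3.26 (SE 0.450, adjusted p = 2.02e-06), EFEMP1 by -2.55 (SE 0.320, adjusted p = 4.95e-07), TIMP3 by -2.47 (SE 0.245, adjusted p = 1.37e-08) and HTRA1 by -0.36 (SE 0.133, adjusted p = 0.0307). A negative value says that the fovea stood lower against the other location in retina than in RPE/choroid. The HTRA1 call was lost in 9 of 14 alternatives, with a value of -0.13 (adjusted p = 0.373) without eye 2 and of -0.22 (adjusted p = 0.199) when library totals were used alone. The median was -1.08 for the 9 genes and -0.070 for all.

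Against the perimacula, within shared flow cells, 2 of 9 genes were called in this interaction, beside 15.2% of all genes: TIMP3 by -0.94 (SE 0.243, adjusted p = 0.00944) and ELOVL4 by -1.63 (SE 0.540, adjusted p = 0.0417). Against the nasal location 3 of 9 were called, beside 23.5% of all genes: TIMP3 by -0.87 (SE 0.243, adjusted p = 0.0100), BEST1 by -1.54 (SE 0.443, adjusted p = 0.0120) and IMPG1 by -3.40 (SE 1.20, adjusted p = 0.0403). Without eye 3, whose foveal RPE/choroid library is high in rod markers, the ELOVL4 value was -0.70 (adjusted p = 0.483) and that of IMPG1 -0.68 (adjusted p = 0.717). Without all 3 libraries high in rod markers ELOVL4 was still called, at -0.92 (adjusted p = 0.0185), and IMPG1 was not, at -0.94 (adjusted p = 0.454). With the eye as a block neither passed, at adjusted p of 0.0518 and 0.0573, and the other IMPG1 entry was not called against the nasal location (-2.34, adjusted p = 0.169). The TIMP3 value against the perimacula was also lost without eye 3 (-0.63, adjusted p = 0.189), and those of TIMP3 and BEST1 against the nasal location were lost without eye 3 (adjusted p = 0.0913 and 0.135) and without eye 4 (adjusted p = 0.136 and 0.131). The median of the 9 genes was -1.24 and -1.31 in these comparisons, and -0.025 and -0.053 for all genes.

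**Figure D5:**
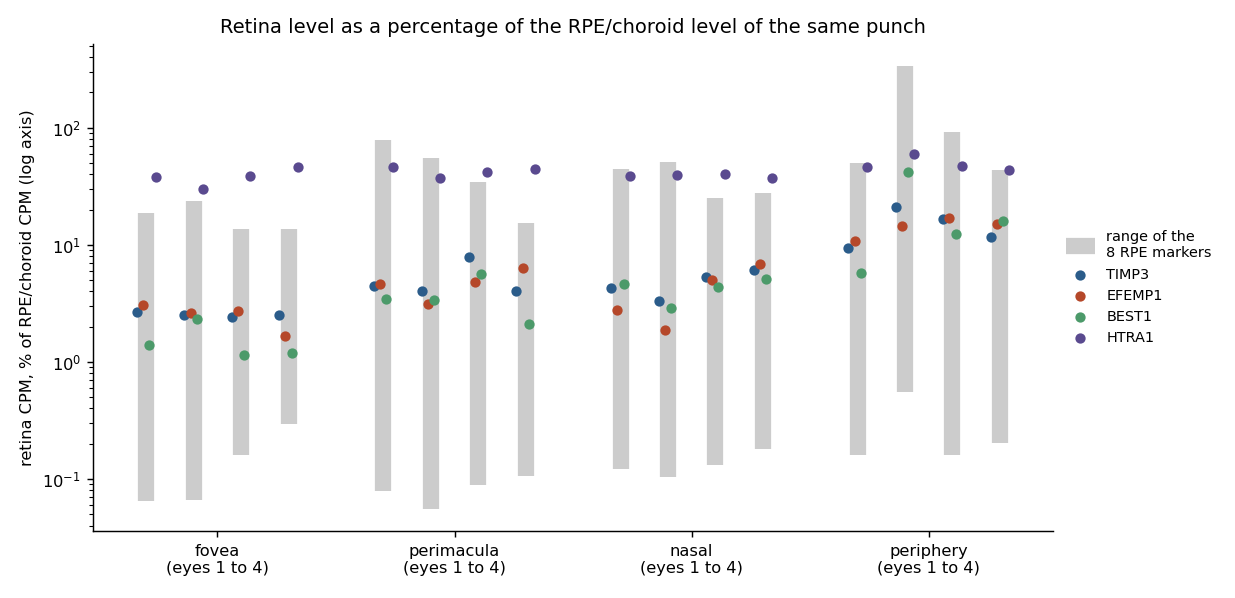
Retina level of TIMP3, EFEMP1, BEST1 and HTRA1 as a percentage of the RPE/choroid level in the same punch (vertical log axis), for eyes 1 to 4 at each location. Grey bars span the 8 RPE markers in that punch. TIMP3, EFEMP1 and BEST1 lie inside the bars in 16 of 16 punches and have higher median shares at the periphery than at the fovea. The share of EFEMP1 does not rise at each step between these locations. HTRA1 stays between 29.9% and 59.8%.

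The retinal share of the RPE/choroid genes was computed in the same way. TIMP3 in retina had a median of 2.51% of its RPE/choroid level at the fovea, 4.24% at the perimacula, 4.78% in the nasal punches and 14.2% at the periphery. EFEMP1 had 2.67% at the fovea and 14.8% at the periphery, and BEST1 had 1.29% and 14.1%. All 3 lay inside the range of the 8 RPE markers in 16 of 16 punches, a range that is wide: at the fovea the markers' medians ran from 0.113% for PMEL, a melanosome protein, to 16.1% for SERPINF1. HTRA1 had a share of 38.5% at the fovea and 46.9% at the periphery and lay above every RPE marker in 9 of 16 punches.

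For each gene, the genes with the most similar log2 CPM over the 16 libraries of its tissue of higher level were listed. BEST1 was closest to CA14, SLC19A1 and RLBP1 in RPE/choroid, with Pearson r of 0.972, 0.965 and 0.958. TIMP3 was closest to TMEM192, PLCE1 and SIPA1L3 (0.976, 0.961 and 0.954), EFEMP1 to ANKRD44 and RGL1 (0.905 and 0.891) and HTRA1 to STAU1, ABCC1 and SIL1 (0.908, 0.896 and 0.893). PROM1 was closest in retina to ABCA4, the flippase of photoreceptor discs mutated in Stargardt disease, PPARA and RYK (0.992, 0.991 and 0.990), and CDHR1 to SYNE3, OSBP2 and GPR160 (0.995, 0.972 and 0.970). ELOVL4 was closest to MAK, a kinase of the photoreceptor cilium, CCDC181 and WDR20, each with 0.989. IMPG1 was closest to CMTR2, KDM3B and GSE1 (0.987, 0.982 and 0.981) and IMPG2 to RGS9, the regulator that turns off transducin, SLC44A1 and ROCK1 (0.980, 0.974 and 0.972). These values come from 4 locations and 2 animals, which the libraries share, and describe likeness only.

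Other genes of the same functions were read from lists drawn up for this purpose. Of 29 further genes of macular and cone-rod disease, 20 were called lower and 6 higher at the foveal than at the peripheral retina. Over all genes, 67.0% were called there. The median log2 fold change of the list was -0.60. CNGA3, a cone channel subunit, was the highest at 1.52 (SE 0.103) and CDH3 the lowest at -1.97 (SE 0.218). In RPE/choroid, 6 of 28 were called higher and 2 lower, with a median of -0.094, beside 44.1% of all genes called. Among 9 genes listed for the outer segment and its surrounding matrix, 8 were called lower and 1 higher at the foveal retina, with a median of -1.36. They ran from CDHR5 at -2.56 (SE 0.396) to CD44, a hyaluronan receptor, at 1.24 (SE 0.302). Both CDHR5 and CD44 had less RNA in retina than in RPE/choroid at the fovea (-5.95 and -3.63). The foveal retina mean of CDHR5 was 0.57 CPM. In RPE/choroid 0 of these 9 were called by edgeR or DESeq2, with 0 at an unadjusted p under 0.05 in edgeR and 2 in DESeq2, and their median was -0.81.

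Of the 12 genes of fatty acid elongation and desaturation, 6 were called higher and 4 lower at the foveal than at the peripheral retina. Over all genes, 67.0% were called in this comparison. ELOVL7 was the highest at 1.61 (SE 0.174) and ELOVL2, which makes the precursors that ELOVL4 extends, the lowest at -0.71 (SE 0.0939), with a median of 0.19 over the list against -1.02 for ELOVL4. In RPE/choroid, where 44.1% of all genes were called, 6 of these 12 were called, all higher at the fovea. They were led by MFSD2A, a carrier of docosahexaenoic acid, at 1.60 (SE 0.436). For the relatives and targets of the matrix members, 11 of 16 were called lower and 2 higher at the foveal retina, with TIMP2 the highest at 1.03 (SE 0.107) and FBLN1, another fibulin, the lowest at -5.73 (SE 0.592). In RPE/choroid 4 of 18 were called higher and 3 lower. KDR, a VEGF receptor that TIMP3 can bind, was at 0.90 (SE 0.157) and HTRA3 at -2.30 (SE 0.545). The HTRA3 mean was 2.17 CPM at the fovea and 10.2 CPM (SD 4.70) at the periphery.

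Among genes at loci for age-related macular degeneration, where HTRA1 lies, 4 of 18 were called higher and 9 lower at the foveal retina. This was against the periphery, where 67.0% of all genes were called, and SYN3 was the highest at 4.48 (SE 0.255). In RPE/choroid 7 of 19 were called higher and 4 lower, beside 44.1% of all genes. The called values ran from VEGFA at 1.32 (SE 0.276) to RAD51B at -3.25 (SE 0.635). The RAD51B mean was 1.17 CPM at the fovea and 10.8 CPM (SD 6.47) at the periphery. Of 5 bestrophin relatives and regulators of BEST1, MITF, a transcription factor of pigment cells, was called higher at the foveal retina by 1.94 (SE 0.183) and CRX, the photoreceptor homeobox factor, lower by -0.51 (SE 0.150). In RPE/choroid 2 of 5 were called, both higher at the fovea: CRX by 1.51 (SE 0.521) and SOX9, named after its values were seen, by 1.07 (SE 0.182).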

How the data were processed

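RNA was taken from 2 mm punches at 4 locations of 4 eyes of 2 rhesus monkeys, separately for neural retina and RPE/choroid, and sequenced after poly-A selection as 32 libraries on 136 lanes. Per the submitters' processing notes and the study's methods, the authors quantified reads with Salmon 0.13 against the Mmul_8.0.1 transcripts and deposited one table per lane with estimated counts per gene, scaled by tximport for transcript length and library size. The deposited column carries the name TPM, but its lane sums ran from 7932259 to 39439054, so its values were taken to be expected counts. Values were added up over the lanes of each library, then rounded to whole numbers. Of 19432 entries, 10 repeated an identifier with the same values and were counted once, which left 19422. PRPH2 and 12 other listed genes were not analysed here.

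Counts were tested with edgeR 4.0.16 in R 4.3.3 (quasi-likelihood test, TMM scaling, filterByExpr with a minimum count of 10, the monkey as covariate), with Benjamini-Hochberg adjustment over all genes tested and a threshold of 0.05. Fovea, perimacula and periphery of a tissue were fitted together, the nasal comparison came from a fit of all 4 locations of the tissue, and tissue comparisons and interactions from all 32 libraries. CPM use TMM scaling, and log2 CPM a prior count of 2. All fold changes are on the log2 scale. Alternatives were DESeq2 1.42.0, other scalings, filters and covariates, the eye as a block, fewer or more groups in the fit, and each replicate left out. Leaving out libraries with high rod markers or low RPE65 was added after seeing the data. The test was checked on simulated data. Tables were handled with Python 3.11.15, numpy 2.4.6 and pandas 2.3.3, and plots drawn with matplotlib 3.10.9.

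Replicates 1 to 4 are the same eyes in every group, so numbers pair the samples by eye. Deviations from the group means correlated on average by 0.564 (retina) and 0.395 (RPE/choroid) between libraries of the same eye, by 0.558 and 0.413 between fellow eyes and by -0.561 and -0.403 between animals, over the 1000 most variable genes. Each group was centred on its own mean, so the negative sign between animals was fixed by the other values. Libraries of the same eye were about as alike as those of fellow eyes. No replicates were near-identical: the smallest variance between 2 replicates was 4.32 times that of counting. The p-values rest on the spread among 4 eyes that remains after a constant difference between the 2 animals is removed. Fellow eyes entered as separate replicates, so the p-values do not measure the spread from animal to animal.

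Members and gene lists were chosen with earlier results of these data known. The text names the members, the highest and lowest called gene of each list between fovea and periphery, and for each member the 3 genes nearest in log2 CPM, apart from 2 genes that are not reported here. Single marker genes were named after their values were seen. Neighbouring genes come from the RefSeq annotation of T2T-MMU8v2.0, another assembly than the files use. Sequences and promoter motifs were not analysed here.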

Additional observations from a re-analysis of the deposited data

Results flagged for a closer look

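Among the 80 groups of 4 eyes that the 10 entries form in 2 tissues and 4 locations, 9 had an eye far from the other 3 by Dixon's criterion, where chance would mark about 1 in 20. Most were in RPE/choroid. At the fovea, eye 3 stood above the others with 10.6 CPM of ELOVL4, 9.54 CPM of IMPG1, 9.94 CPM of its other entry, 23.0015 CPM of IMPG2 and 48.1 CPM of CDHR1. The summed rod markers were 539 CPM in that library and 51.1, 59.3 and 133 CPM in the other foveal RPE/choroid libraries, and their part in these values was not tested. At the perimacula, eye 1 held 2.77 CPM of IMPG1 and 3.02 CPM of its other entry, with a rod marker sum of 113 CPM, the highest of that group. HTRA1 in the peripheral RPE/choroid of eye 1 was 289.6 CPM, while the other eyes had 191 to 207. BEST1 in the nasal retina of eye 2 was 14.1 CPM, below 25.8 to 26.3 in the other eyes.

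The change from the fovea differed between the tissues by the interaction test for 9 pairs of gene and comparison. Against the periphery, where 43.5% of all genes were called, the difference was -3.26 for BEST1, -2.55 for EFEMP1, -2.47 for TIMP3 and -0.36 for HTRA1 on the log2 scale. Against the perimacula, where 15.2% of all genes were called, it was -1.63 for ELOVL4 and -0.94 for TIMP3, and against the nasal location, where 23.5% were called, -1.54 for BEST1, -3.40 for IMPG1 and -0.87 for TIMP3. With the eye as a block ELOVL4 and IMPG1 no longer passed (edgeR adjusted p of 0.0518 and 0.0573), and HTRA1 did not pass in 9 of 14 alternatives. The peripheral values cannot be told apart from a flow cell difference that acts unequally on the tissues.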

How the results depend on the processing

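No fold change of a member that passed the test changed sign under an alternative. Of 1780 fold changes refitted, 1724 kept direction and side of the threshold, 38 no longer passed and 18 newly passed. Of 180 refitted counts of called members, 165 stayed within 1.5 times. In RPE/choroid between fovea and periphery the count of 2 fell to 1 with library totals in place of TMM, with the eye as replicate block, without covariate and without the library lowest in RPE65, and ran from 1 to 3 with each replicate left out. The tissue difference between fovea and perimacula, 2 members, gave 4 by DESeq2 and 1 with library totals, with the replicate block and without covariate, and 0 to 3 with a replicate left out. The tissue difference between fovea and nasal location, 3 members, gave 0 to 3 with a replicate left out. Mean CPM moved by more than 1 SD only with library totals, for TIMP3 in nasal RPE/choroid, PROM1 in foveal retina and CDHR1 in nasal retina.

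Over all genes, the count of 5416 called between foveal and perimacular retina fell to 3225 without replicate 1 and 3406 without replicate 3. In RPE/choroid the 7 genes called between fovea and perimacula became 310 by DESeq2, 1 with the replicate block, 1 without covariate, 357 with only the groups compared, 22 with nasal libraries and 0 without replicate 1, 3 or 4. The 57 called against the nasal location became 479, 30, 4 and 346 under the first 4 of these and 0 to 10 with a replicate left out. Library totals turned the split of genes higher and lower at the foveal RPE/choroid against the periphery from 3317 and 3594 to 2376 and 4632 and moved the median of all genes from -0.059 to -0.19. They turned the split of the tissue difference from 3121 and 4009 to 3722 and 3117 against the periphery and from 1160 and 1334 to 1493 and 919 against the perimacula. In RPE/choroid the split went from 33 and 24 to 36 and 13 against the nasal location and from 3 and 4 to 2 and 6 against the perimacula. The median of all genes moved from -0.070 to 0.059 for the tissue difference against the periphery, from -0.0017 to 0.14 for retina over RPE/choroid at the fovea and from 0.0054 to 0.18 in the nasal punches. The 2494 genes of the tissue difference against the perimacula became 1641 without covariate and 1023 and 867 without replicates 1 and 3, and the 3853 against the nasal location became 2548 and 2510 without replicates 1 and 4.

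With 4 eyes of 2 animals, a p that misses the threshold does not show equal levels, and low counts of photoreceptor genes in RPE/choroid left standard errors above 1 for IMPG1, IMPG2 and CDHR1.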
